A study of Mus musculus with 12 samples.

Results

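The 10 genes described here are *Il4ra*, *Il13ra1*, *Il13ra2*, *Il17ra*, *Il17rc*, *Stat3*, *Stat6*, *Socs1*, *Socs2* and *Socs3*. They were taken by symbol, as the receptors of type 2 cytokines and IL-17 with the STAT and SOCS genes downstream of them, and the choice was made with earlier results of these data known. All 10 were among the 55450 genes of the deposited table and among the 20612 genes that had enough counts to be tested. RNA was sequenced from alveolar type II (AT2) cells of mice on a C57BL/6 background, in 4 groups of 3 libraries. Cells of *AhRfl/fl* mice, in which both copies of the aryl hydrocarbon receptor gene carry loxP sites, and of *Sftpc-Cre;AhRfl/fl* mice, in which Cre is driven by the surfactant protein C promoter, were each treated with PBS or with an extract of cockroach (CRE, 50 µg/ml) over 24 h. All 4 groups therefore carry the floxed alleles, and only the second genotype carries Cre. The cells were enriched by removing cells that bound antibodies to leukocyte, erythroid and Sca-1 antigens, and were cultured before treatment. The labels do not say that the 3 libraries of a group came from separate mice, so p-values measure the spread between these libraries, which may be technical.

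IL-4 and IL-13 signal through a receptor that pairs IL-4Rα, encoded by *Il4ra*, with IL-13Rα1, and its Janus kinases phosphorylate STAT6. IL-13Rα2 binds IL-13 with high affinity and is best known as a decoy. IL-17A and IL-17F act through IL-17RA with IL-17RC, which recruit the adaptor Act1 and do not use STATs directly, whereas cytokines of the IL-6 family activate STAT3. SOCS1, SOCS2 and SOCS3 are feedback inhibitors that STATs induce, and in lung epithelium these pathways govern mucus, chemokine and antimicrobial genes.

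Levels are given as CPM, counts scaled to the normalized library size, and differences as log2 fold changes. Total counts lay between 68878065 and 80935797 per library, so that 3 counts corresponded to 0.0371 to 0.0436 CPM. *Ahr* itself was at 37.7 to 56.2 CPM over the 12 libraries, and its log2 difference between genotypes averaged over treatments was -0.07 (SE 0.083, adjusted p = 0.884 by edgeR). A count over the whole gene does not separate the deleted part from the rest, so it does not check the labels. *Cyp1b1*, which AhR induces, was at 344 to 465 CPM in the 6 *AhRfl/fl* libraries and 31.7 to 63.9 CPM in the 6 *Sftpc-Cre;AhRfl/fl* libraries. The AT2 marker *Sftpc* was at 3086 to 6492 CPM, but *Scgb1a1*, the marker of club cells, was at 3959 to 8069 CPM in the same libraries. The 12 lymphocyte and granulocyte markers summed to 178 to 265 CPM in replicate 1 of each group and to 17.0 to 64.6 CPM in the other 8 libraries. In bulk RNA, fewer cells of a type and less RNA per cell cannot be told apart.

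Levels were first ordered per length of the annotated exons, as FPKM. These exons combine the annotated transcripts of a gene and spanned 2281 bases for *Il13ra2* to 9531 for *Socs2*. *Socs2* was at place 7 by FPKM and at place 3 by CPM, so this order depends on the annotated length. *Stat6* had the highest mean at 20.7 ± 1.49 FPKM (SD, n = 12 libraries), followed by *Socs3* at 17.8 ± 2.65 and *Stat3* at 14.7 ± 1.42 FPKM. Next came the receptor chains *Il17rc* at 12.3 ± 1.17, *Il13ra1* at 11.8 ± 0.882 and *Il4ra* at 8.30 ± 0.647 FPKM. *Socs2* was at 6.83 ± 0.984 and *Il17ra* at 4.36 ± 0.624 FPKM, while *Socs1* was at 1.02 ± 0.524 and *Il13ra2* at 0.213 ± 0.159 FPKM. Both STATs and both pairs of signaling receptor chains were therefore measured well above the lowest genes, and the decoy receptor was the lowest. From *Il13ra1* down, each gene was above the next in 12 of 12 libraries. Above that, neighbours changed places between libraries. *Stat6* was above *Socs3* in 11, *Socs3* above *Stat3* in 10, *Stat3* above *Il17rc* in 11 and *Il17rc* above *Il13ra1* in 9 of 12.

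**Figure D1:**
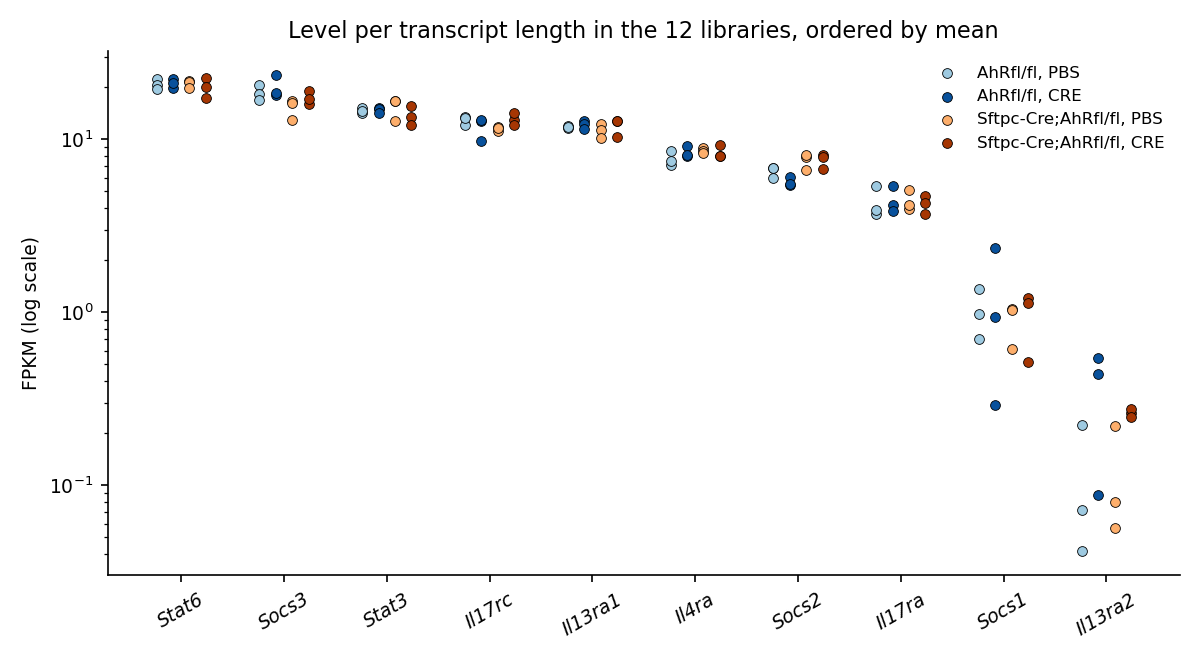
FPKM of the 10 genes (log axis) in each of the 12 libraries, colored by group and ordered by mean from *Stat6* (20.7 FPKM) to *Il13ra2* (0.213 FPKM). The ranges of neighbours overlap from *Stat6* to *Il13ra1*, and those of *Socs1* (0.291 to 2.36 FPKM) and *Il13ra2* (0.0415 to 0.547 FPKM) are the lowest and the widest relative to their means.

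Short stretches before the start sites are shown, because they hold the only matches of the searched motifs among the genes with a promoter sequence. RefSeq sequences of GRCm38.p6 gave 8 of the 10 genes, and the 250 bases before each start were searched on both strands. TTCNNNGAA, the palindromic STAT element, was found before *Socs3* and in 7.02% of all 32851 windows. GCGTG, the core of the AhR response element, was found before *Il4ra* and in 28.2% of the windows. The same element with 4 bases between its arms, which STAT6 prefers, was found before 0 of the 8 genes and in 5.85% of the windows. Each stretch is written on the gene's strand with the match in capitals, at positions -154 to -146 for *Socs3* (chr11:117969502-117969530, minus strand) and -153 to -149 for *Il4ra* (chr7:125552108-125552132, plus strand) from the RefSeq start. The *Il4ra* stretch reaches into the first exon of the GENCODE model, and the GENCODE model of *Socs3* starts further upstream than that of RefSeq.
Socs3: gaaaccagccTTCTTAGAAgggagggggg
Il4ra: agctgcggacGCGTGgggtggggca
These are matches of letters and were not measured as binding sites.

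The first comparison asked whether the receptors changed with CRE or between the genotypes. *Il4ra* (ENSMUSG00000030748, chromosome 7, 125552120 to 125579474 in GRCm38), the chain shared by IL-4 and IL-13, was at 56.5, 48.4 and 51.0 CPM with PBS and 59.9, 54.2 and 55.7 CPM with CRE in *AhRfl/fl* cells. The *Sftpc-Cre;AhRfl/fl* libraries were at 58.0, 56.1 and 55.8 CPM with PBS and 60.2, 54.0 and 55.1 CPM with CRE. All groups overlapped. Replicate 1 was the highest library of each group, at 56.5 to 60.2 CPM, against 48.4 to 56.1 CPM in replicates 2 and 3. The lymphocyte and granulocyte markers were also highest in replicate 1. The part of leukocyte RNA in the *Il4ra* level was not tested. The CRE response averaged over the genotypes was 0.06 on the log2 scale (SE 0.053, 95% confidence interval -0.06 to 0.18), and the genotype difference averaged over treatments was 0.06 (SE 0.053, interval -0.06 to 0.18).

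*Il13ra1* (ENSMUSG00000017057, chromosome X, 36112110 to 36171259), the chain that binds IL-13 in the signaling receptor, was at 48.8, 48.9 and 49.5 CPM with PBS and 51.6, 51.7 and 48.4 CPM with CRE in *AhRfl/fl* cells. In *Sftpc-Cre;AhRfl/fl* cells it was at 48.7, 46.3 and 42.5 CPM with PBS and 51.6, 53.1 and 43.8 CPM with CRE. The PBS libraries of the genotypes did not overlap, by a gap between 48.7 and 48.8 CPM. The log2 difference between them was -0.10 (SE 0.082, adjusted p = 0.837 by edgeR). With CRE the averaged change was 0.08 (interval -0.05 to 0.21) and the averaged genotype difference -0.06 (interval -0.19 to 0.06).

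*Il13ra2* (ENSMUSG00000031289, chromosome X, 147383476 to 147429192) was scarce, with 8 to 106 counts per library. In *AhRfl/fl* cells it was at 0.560, 0.119 and 0.193 CPM with PBS and at 1.11, 0.228 and 1.42 CPM with CRE. Levels in *Sftpc-Cre;AhRfl/fl* cells were 0.546, 0.146 and 0.217 CPM with PBS and at 0.648, 0.710 and 0.669 CPM with CRE. Every CRE library was above the PBS library of the same number, in 3 of 3 pairs of each genotype, and the groups did not overlap in *Sftpc-Cre;AhRfl/fl* cells but did in *AhRfl/fl* cells. The CRE response was 1.65 (SE 0.75) in *AhRfl/fl* and 1.15 (SE 0.75) in *Sftpc-Cre;AhRfl/fl* cells. They were 2.54 and 1.89 without PBS replicate 1 of the respective genotype. Averaged over the genotypes it was 1.40 on the log2 scale, or 2.64-fold, with a confidence interval of 1.17 to 5.96-fold, and it was 2.15 without replicate 1 of every group. This did not pass over all genes in edgeR (adjusted p = 0.340), nor with the libraries of the same number paired (adjusted p = 0.0939), and DESeq2 gave no adjusted p. It passed the study's rule of an unadjusted p below 0.05 and a log2 change above 0.5, which 4.02% of all genes tested met. Of the 10 fibroblast markers, which were low at a summed 76.2 to 274 CPM, 0 were called with CRE and their median log2 change was -0.06, and a part of other cells in the *Il13ra2* counts was not tested.

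*Il17ra* (ENSMUSG00000002897, chromosome 6, 120463247 to 120487559), the chain common to several IL-17 receptors, was at 51.0, 36.8 and 38.0 CPM with PBS and 51.0, 41.1 and 38.1 CPM with CRE in *AhRfl/fl* cells. The *Sftpc-Cre;AhRfl/fl* libraries were at 47.4, 37.5 and 40.7 CPM with PBS and 44.4, 35.9 and 42.4 CPM with CRE. The highest library of each group was replicate 1, at 44.4 to 51.0 CPM, against 35.9 to 42.4 CPM in the other 8 libraries. *Ptprc*, which encodes the leukocyte antigen CD45, was likewise at 47.4 to 67.5 CPM in replicate 1 and at 2.19 to 20.7 CPM in the others. The part of leukocyte RNA in the *Il17ra* level was not tested. The averaged CRE response was 0.01 (SE 0.11, interval -0.24 to 0.25) and the averaged genotype difference -0.04 (SE 0.11, interval -0.29 to 0.20).

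**Figure D2:**
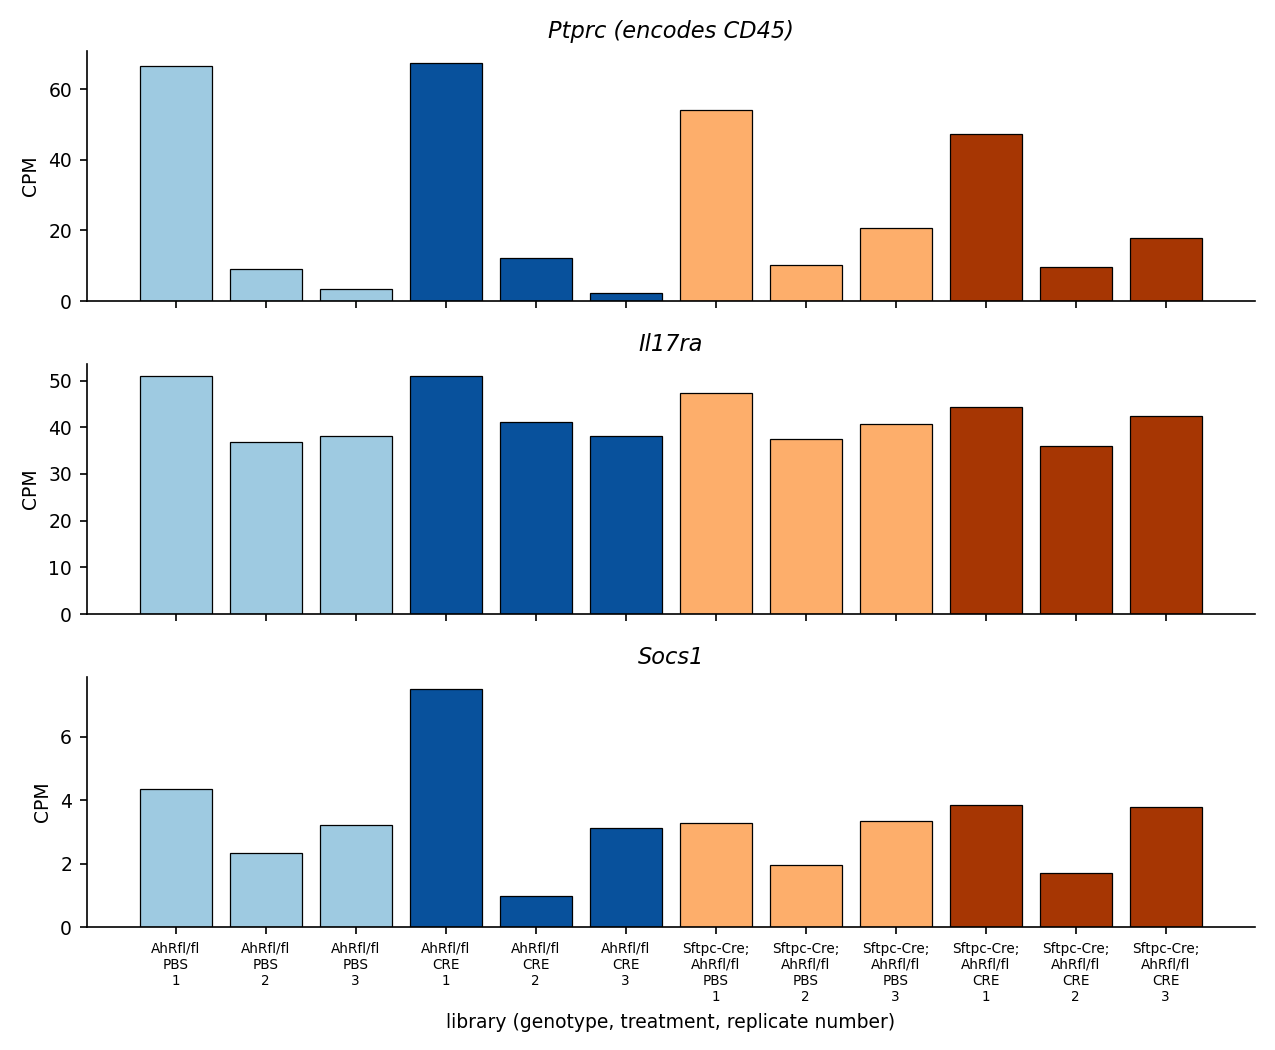
CPM (bars from 0) of *Ptprc*, *Il17ra* and *Socs1* in each of the 12 libraries, labelled by genotype, treatment and replicate number. *Ptprc* was 47.4 to 67.5 CPM in replicate 1 of the groups and at most 20.7 CPM elsewhere, and *Il17ra* was also highest there.

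*Il17rc* (ENSMUSG00000030281, chromosome 6, 113471427 to 113483140), the partner chain for IL-17A and IL-17F, was at 35.4, 41.0 and 40.1 CPM with PBS and 28.6, 38.8 and 39.5 CPM with CRE in *AhRfl/fl* cells. In *Sftpc-Cre;AhRfl/fl* cells it was at 34.1, 32.7 and 34.8 CPM with PBS and 37.4, 42.2 and 37.0 CPM with CRE. Each CRE library of *AhRfl/fl* cells was below the PBS library of its number, and each CRE library of *Sftpc-Cre;AhRfl/fl* cells was above it. The responses were -0.12 (SE 0.12) and 0.20 (SE 0.12), and their difference was 0.32 (SE 0.17, interval -0.05 to 0.70), which did not pass in edgeR (adjusted p = 1.00). With CRE the averaged change was 0.04 (interval -0.15 to 0.23) and the averaged genotype difference -0.04 (interval -0.22 to 0.15).

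Both STATs were abundant and steady. *Stat6* (ENSMUSG00000002147, chromosome 10, 127642986 to 127660957), the factor activated by IL-4 and IL-13, was at 108, 103 and 97.0 CPM with PBS and 95.6, 111 and 106 CPM with CRE in *AhRfl/fl* cells. Levels in *Sftpc-Cre;AhRfl/fl* cells were 102, 104 and 98.0 CPM with PBS and 108, 98.3 and 88.3 CPM with CRE. The groups overlapped throughout. The averaged CRE response was -0.02 (SE 0.059, interval -0.14 to 0.11) and the averaged genotype difference -0.05 (SE 0.059, interval -0.18 to 0.08).

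*Stat3* (ENSMUSG00000004040, chromosome 11, 100885098 to 100939540), the factor downstream of gp130 cytokines, was at 160, 153 and 157 CPM with PBS and 159, 163 and 154 CPM with CRE in *AhRfl/fl* cells. The *Sftpc-Cre;AhRfl/fl* libraries were at 171, 175 and 137 CPM with PBS and 161, 143 and 133 CPM with CRE. The *Sftpc-Cre;AhRfl/fl* libraries spread more widely, and each of their CRE libraries was below the PBS library of its number. With CRE the averaged change was -0.07 (SE 0.069, interval -0.22 to 0.09) and the averaged genotype difference -0.04 (SE 0.069, interval -0.19 to 0.11). Exons of *Stat3* share 72 bases with *Stat5a* and those of *Stat6* share 40 bases with *Nab2*, both on the opposite strand, and whether the counting used strand is not stated.

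*Socs2* and *Socs3* had the smallest p-values of the 10 in the averaged genotype difference. *Socs2* (ENSMUSG00000020027, chromosome 10, 95385362 to 95417180), known as a brake on growth hormone and STAT5 signaling, was at 62.6, 74.4 and 73.3 CPM with PBS and 56.7, 65.4 and 59.6 CPM with CRE in *AhRfl/fl* cells. In *Sftpc-Cre;AhRfl/fl* cells it was at 80.7, 84.7 and 71.2 CPM with PBS and 84.1, 84.2 and 73.6 CPM with CRE. With CRE the genotypes did not overlap, 65.4 CPM being the highest of one and 73.6 CPM the lowest of the other, whereas with PBS they overlapped. Groups did not overlap with CRE in 11% of all genes tested, and *Socs2* was the only 1 of the 10.

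The log2 genotype difference of *Socs2* was 0.41 with CRE (SE 0.097, interval 0.20 to 0.63) and 0.17 with PBS (SE 0.096). Averaged over treatments it was 0.29 (SE 0.068), or 1.22-fold with an interval of 1.10 to 1.36-fold. It had an adjusted p of 0.124 in edgeR, so it did not pass over all genes, and the difference with CRE had an adjusted p of 0.312. DESeq2 called *Socs2* in the averaged difference (adjusted p = 0.00792) and with CRE (adjusted p = 0.0228). It called 2.53% and 0.83% of the genes tested in these comparisons. In *AhRfl/fl* cells *Socs2* was lower with CRE in 3 of 3 numbered pairs, by -0.21 on the log2 scale (SE 0.096), and the adjusted p was 0.538 in edgeR and 0.0739 with the libraries paired. The response in *Sftpc-Cre;AhRfl/fl* cells was 0.03 (SE 0.096), and the difference of the responses was 0.24 (SE 0.14, adjusted p = 1.00 by edgeR).

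*Socs3* (ENSMUSG00000053113, chromosome 11, 117966079 to 117970047), the inhibitor that STAT3 induces and that binds gp130, was at 65.0, 60.1 and 55.0 CPM with PBS and 74.8, 58.8 and 61.4 CPM with CRE in *AhRfl/fl* cells. Levels in *Sftpc-Cre;AhRfl/fl* cells were 51.8, 40.8 and 52.6 CPM with PBS and 59.8, 51.6 and 57.1 CPM with CRE. The genotypes did not overlap with PBS and overlapped with CRE, in the direction opposite to that of *Socs2*. With PBS, *Socs3*, *Il13ra1* and *Il17rc* were the 3 of the 10 genes without overlap, against 14% of all genes tested.

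The log2 genotype difference of *Socs3* was -0.31 with PBS (SE 0.12, interval -0.58 to -0.04) and -0.21 with CRE (SE 0.12). Averaged over treatments it was -0.26 (SE 0.087), or 0.835-fold with an interval of 0.731 to 0.953-fold, and it did not pass over all genes in edgeR (adjusted p = 0.312). The CRE response averaged over the genotypes was 0.16 (SE 0.087, interval -0.03 to 0.36), with an adjusted p of 0.554 in edgeR and of 0.105 with the libraries paired. *Socs3* was higher with CRE in 2 of 3 numbered pairs of *AhRfl/fl* cells and in 3 of 3 of *Sftpc-Cre;AhRfl/fl* cells. Ciliated cell markers moved with the genotype beside these genes. All 8 were higher in *Sftpc-Cre;AhRfl/fl* cells with a median log2 difference of 0.51, although edgeR called 0 of them. They summed to 132 to 178 and 120 to 175 CPM with PBS and CRE in *AhRfl/fl* cells and to 174 to 287 and 180 to 290 CPM in *Sftpc-Cre;AhRfl/fl* cells. The sums of 287 and 290 CPM were those of replicate 1, and the remaining *Sftpc-Cre;AhRfl/fl* libraries were at 174 to 183 CPM. In *AhRfl/fl* cells replicate 3 was at 175 to 178 CPM and replicates 1 and 2 at 120 to 137 CPM. The part of ciliated cells in the *Socs2* and *Socs3* differences was not tested. Without replicate 1 of every group, 0 of the 10 genes were called in either averaged comparison.

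*Socs1* (ENSMUSG00000038037, chromosome 16, 10782240 to 10785536), which binds Janus kinases directly, varied most among libraries after *Il13ra2*. It was at 4.35, 2.35 and 3.22 CPM with PBS and 7.52, 0.965 and 3.13 CPM with CRE in *AhRfl/fl* cells. The *Sftpc-Cre;AhRfl/fl* libraries were at 3.27, 1.97 and 3.35 CPM with PBS and 3.83, 1.69 and 3.79 CPM with CRE. Replicate 2 was the lowest of every group, and the highest of all 12 was replicate 1 of the CRE-treated *AhRfl/fl* cells, the library in which *Ptprc* was also highest. *Ptprc* was at 67.5 CPM there and at 66.5 CPM in PBS replicate 1 of that genotype, where *Socs1* was at 4.35 CPM. In PBS-treated *Sftpc-Cre;AhRfl/fl* cells *Socs1* was highest in replicate 3. The part of leukocyte RNA in the *Socs1* level was not tested. The averaged CRE response was 0.17 (SE 0.43, interval -0.77 to 1.11) and the averaged genotype difference -0.26 (SE 0.43, interval -1.20 to 0.68). These intervals span 0.587 to 2.16-fold and 0.434 to 1.60-fold, so smaller changes of *Socs1* were not detectable at this spread.

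**Figure D3:**
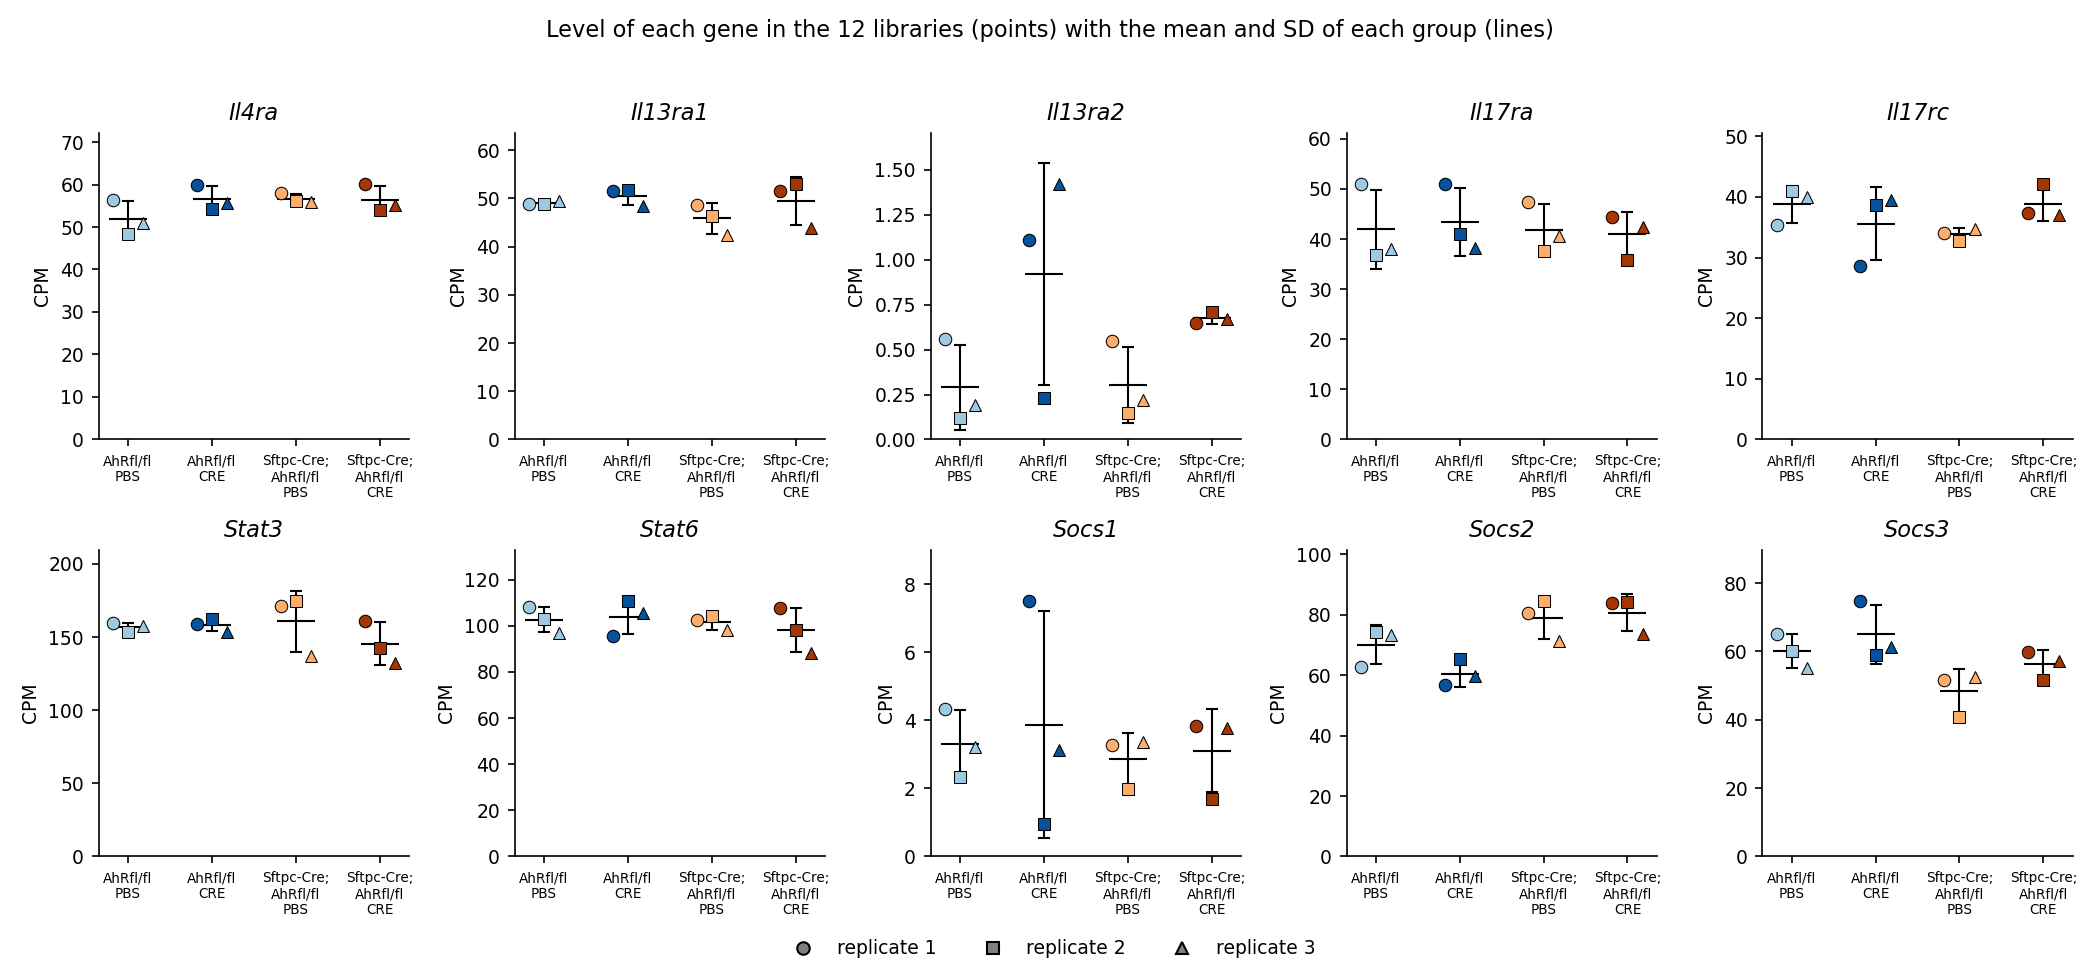
CPM of the 10 genes in the 12 libraries (points, shaped by replicate number) with the mean and SD of each group of 3 (lines), on axes from 0. The genotypes did not overlap for *Socs2* with CRE (56.7 to 65.4 against 73.6 to 84.2 CPM), as in 11% of all genes tested. With PBS they did not overlap for *Socs3* (55.0 to 65.0 against 40.8 to 52.6 CPM), *Il13ra1* and *Il17rc*, as in 14% of all genes.

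With p-values of edgeR adjusted over the 20612 genes by Benjamini and Hochberg's method, 0 of the 10 were called in any of 7 comparisons. Of all genes tested, 1.1% were called in the CRE response averaged over genotypes, 0.233% in *AhRfl/fl* and 0.262% in *Sftpc-Cre;AhRfl/fl* cells. The shares were 0.631% in the averaged genotype difference, 0.15% with PBS, 0.17% with CRE and 0% in the difference of the CRE responses, where 3.7% of all genes and 0 of the 10 had an unadjusted p below 0.05. Without pairing, an unadjusted p below 0.05 was reached by *Il13ra2* in the averaged CRE response, where 11.1% of all genes did. *Socs2* and *Socs3* reached it in the averaged genotype difference, where 9.93% did. Between the genotypes it was also reached by *Socs3* with PBS, where 8.37% of all genes did, and by *Socs2* with CRE, where 5.95% did. With the libraries paired in edgeR, the averaged CRE response had unadjusted p-values of 0.00906 for *Il13ra2*, 0.0109 for *Socs3* and 0.0395 for *Socs2*. The share of all genes below 0.05 in that fit is not given here. With CRE against PBS the libraries did not overlap for 0 of the 10 genes in *AhRfl/fl* cells (16.5% of all genes) and for 2, *Il13ra2* and *Il17rc*, in *Sftpc-Cre;AhRfl/fl* cells (11.8%). The median log2 change of the 10 was 0.05 in the averaged CRE response and -0.05 in the averaged genotype difference, beside medians of -0.0021 and -0.0059 over all genes. In the averaged CRE response of the unpaired fit, the 8 genes other than *Il13ra2* and *Socs1* lay between -0.09 and 0.16 on the log2 scale. Their confidence limits in that fit were between -0.24 and 0.36.

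**Figure D4:**
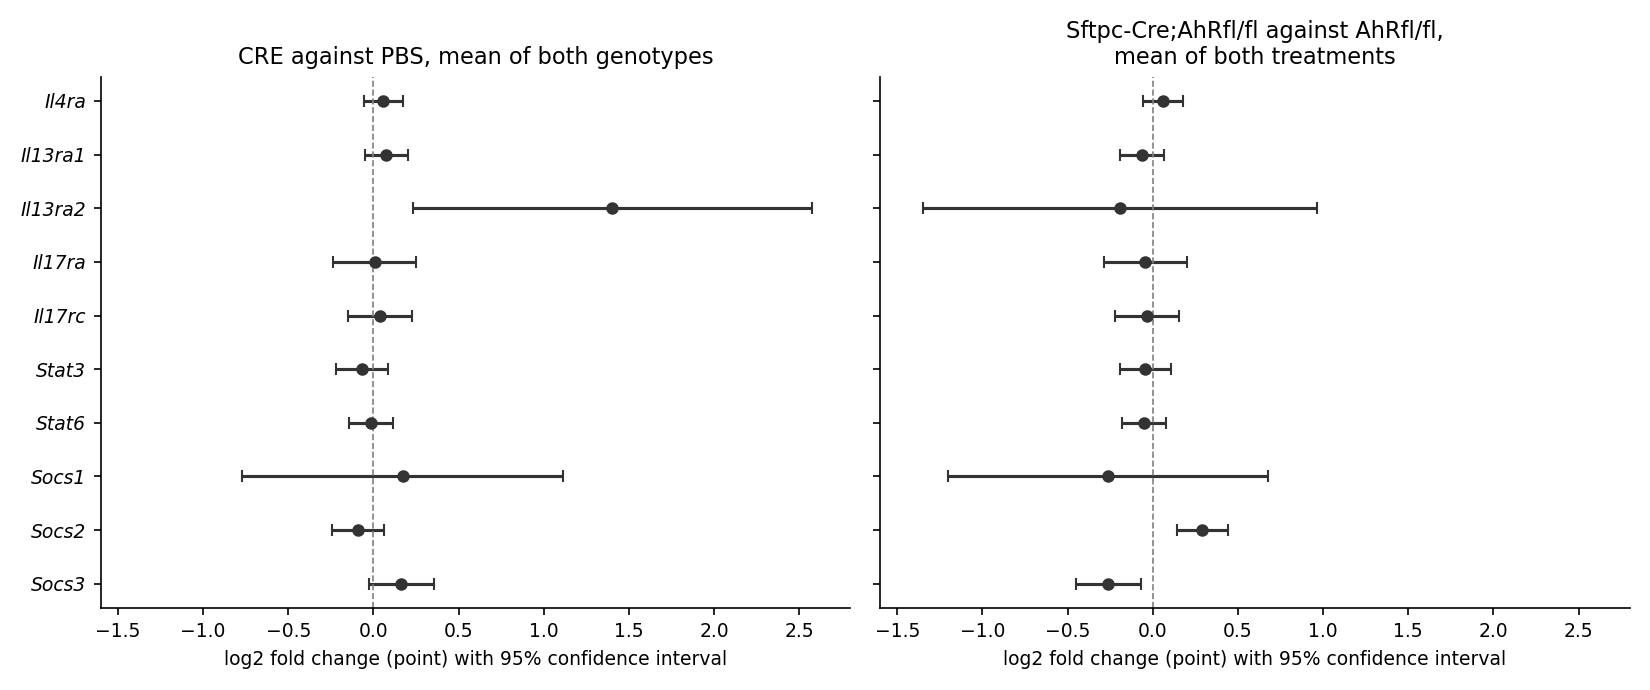
Log2 fold changes (points) with 95% confidence intervals (bars) for CRE against PBS (left) and *Sftpc-Cre;AhRfl/fl* against *AhRfl/fl* (right), each averaged over the other factor. *Il13ra2* lies at 1.40 on the left with a wide interval, and *Socs2* at 0.29 and *Socs3* at -0.26 lie on opposite sides of 0 on the right.

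Most ligands of these receptors were nearly undetected. *Il13*, *Il17a*, *Il17b*, *Il17f* and *Il25* had 6, 12, 10, 16 and 19 counts in all 12 libraries together and were not tested. *Il4* was at 0.362 to 0.863 CPM, *Il17c* at 0.107 to 0.523 CPM and *Il17d* at 2.82 to 5.07 CPM. edgeR and DESeq2 called 0 of these 3 tested genes with CRE, and 0 had an unadjusted p below 0.05 in edgeR. The averaged responses were 0.96 (SE 0.47, adjusted p = 0.498) for *Il17c*, an IL-17 made by epithelium, and -0.07 (SE 0.15, adjusted p = 0.941) for *Il17d*.

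Other receptor chains and the kinases of the pathway showed few calls. Of the 4 partner chains edgeR and DESeq2 called 0 with CRE, with *Il17re*, the partner for IL-17C, at -0.18 (SE 0.11) and *Il17rb*, the partner for IL-25, at 0.44 (SE 0.75), or 1.34 without PBS replicate 1 of the *AhRfl/fl* cells. Of 9 Janus kinases and other STATs both tools called 0, with *Stat5b* at -0.14 (SE 0.070) and *Tyk2* at 0.11 (SE 0.068). In edgeR 0 genes of either group had an unadjusted p below 0.05. DESeq2 gave *Il17c* and *Il17rb* no adjusted p. Among 8 receptors of the gp130 and IL-22 families, which feed STAT3, edgeR called 0 without pairing, with 3 at an unadjusted p below 0.05. *Osmr*, the oncostatin M receptor, was at 0.50 (SE 0.12, adjusted p = 0.0836 by edgeR) and *Il6st*, which encodes gp130, at 0.78 (SE 0.19, adjusted p = 0.0978). DESeq2 called both (adjusted p = 0.00306 and 0.00196), and both met the study's rule. Leaving out single libraries of edgeR's fit brought *Osmr* (0.0254 without PBS replicate 1 of *AhRfl/fl* cells) and *Il6st* (0.0496 without CRE replicate 3 of *AhRfl/fl* cells and 0.0448 without PBS replicate 3 of *Sftpc-Cre;AhRfl/fl* cells) past the threshold. With the libraries paired, *Osmr* rose by 0.52 (adjusted p = 0.00827) and *Il11ra1*, the IL-11 receptor, fell by 0.29 (adjusted p = 0.0353). The paired fit of edgeR did not call *Il6st* (0.77, adjusted p = 0.0849). In replicate 3 of *Sftpc-Cre;AhRfl/fl* cells *Il6st* was lower with CRE, at 231 CPM against 301 CPM with PBS. The paired fit called 6.59% of all genes tested and 0 of the 10.

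The cytokines that activate STAT3 were present at low levels. Of 8 listed 7 were tested, edgeR called 0 with CRE without pairing, 1 had an unadjusted p below 0.05, and the median log2 change was -0.16. *Il6*, the prototype ligand of gp130, was at 5.11, 1.40 and 1.98 CPM with PBS and 9.48, 5.07 and 6.40 CPM with CRE in *AhRfl/fl* cells. In *Sftpc-Cre;AhRfl/fl* cells it was at 2.55, 1.92 and 1.38 CPM with PBS and 7.28, 5.31 and 8.80 CPM with CRE. Every CRE library was above the PBS library of its number, and the averaged response was 1.59 (SE 0.33, adjusted p = 0.0519 by edgeR). *Il6* was called higher by DESeq2 (adjusted p = 8.3e-05), limma-trend and the study's rule (0.0301), with a filter of 1 CPM (0.0444), without PBS replicate 1 of *AhRfl/fl* cells (0.00670) and without replicate 1 of every group (0.0288). With the libraries paired, *Il6* rose by 1.67 (adjusted p = 0.00565) and *Il11* fell by 0.38 (adjusted p = 0.0342).

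Of 13 other SOCS genes and STAT inhibitors, edgeR called 0 with CRE without pairing, and 1 had an unadjusted p below 0.05. *Pias1*, a SUMO ligase, fell by 0.41 with the libraries paired (adjusted p = 8.3e-04). It was also called lower by DESeq2 (0.00987) and without replicate 1 of every group (0.0423). Between the genotypes *Ptpn1*, a phosphatase that acts on Janus kinases, was at 111 to 119 and 109 to 118 CPM in *AhRfl/fl* cells with PBS and CRE and at 92.4 to 99.1 and 88.0 to 101 CPM in *Sftpc-Cre;AhRfl/fl* cells. The genotypes did not overlap with either treatment, as in 14% of all genes tested with PBS and 11% with CRE. The averaged difference of *Ptpn1* was -0.27 (SE 0.047, adjusted p = 0.0351 by edgeR), where 0.631% of all genes were called. Its adjusted p was 0.103 without replicate 1 of every group. The call was also lost on leaving out any of 11 of the 12 single libraries (0.0651 to 0.127).

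Downstream of IL-17RA, 2 of 12 adaptor and feedback genes were called with CRE, both higher, where 0.864% of all genes were called higher. *Zc3h12a*, which encodes the RNase Regnase-1 that degrades cytokine transcripts, was at 9.50, 6.88 and 6.22 CPM with PBS and 31.7, 44.2 and 40.3 CPM with CRE in *AhRfl/fl* cells. Levels in *Sftpc-Cre;AhRfl/fl* cells were 13.2, 7.54 and 7.37 CPM with PBS and 33.9, 40.0 and 36.6 CPM with CRE. It rose by 2.17 on the log2 scale (SE 0.18, adjusted p = 1.9e-04 by edgeR), in 3 of 3 numbered pairs of each genotype. *Nfkbiz*, which encodes the IκBζ cofactor of IL-17 target genes, rose by 1.53 (SE 0.13, adjusted p = 3.0e-04), from 18.6 to 28.8 CPM over the 6 PBS libraries to 50.1 to 77.4 CPM over the 6 CRE libraries. Within *Sftpc-Cre;AhRfl/fl* cells alone the call of *Zc3h12a* (adjusted p = 0.00826) was lost without PBS replicate 2 (0.0524), and that of *Nfkbiz* (0.0148) was lost without PBS replicate 1 (0.0689) or 2 (0.0950) or CRE replicate 2 (0.0606) or 3 (0.0677). *Traf3ip2*, which encodes Act1, was at 28.1 to 37.2 CPM and was not called. *Cebpd* was at 0.55 (adjusted p = 0.0818 by edgeR) and was called with the libraries paired (0.54, adjusted p = 0.0404).

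Of 16 epithelial genes that IL-17 is known to induce, 15 were tested and 10 were called with CRE, all higher. Of all genes 0.864% were called higher, and the median log2 change over the 15 was 1.63. This list, like the 10 genes, was drawn up with earlier results of these data known. With the libraries paired 11 were called, the further gene being *Mmp13*, a collagenase, which rose by 0.89 (adjusted p = 0.0353, against 0.691 without pairing). The same genes are also known to respond to NF-κB activation by other stimuli. *Saa3*, an acute phase protein, rose by 3.80 (SE 0.52, adjusted p = 0.00566 by edgeR), and the neutrophil chemokines *Cxcl5*, *Cxcl2*, *Cxcl1* and *Cxcl3* rose by 3.60, 3.46, 2.99 and 2.86. *Saa3* was low, at 0.102 to 0.614 CPM (8 to 46 counts) over the PBS libraries and 0.970 to 6.97 CPM over the CRE libraries. *Ccl20*, which attracts CCR6-bearing cells, rose by 2.7 (SE 0.27), the metalloreductase *Steap4* by 1.98 (SE 0.31) and *Lcn2*, an iron-sequestering antimicrobial protein, by 1.63 (SE 0.19). The growth factors *Csf2* and *Csf3* rose by 1.59 (SE 0.29) and 1.41 (SE 0.23) from 0.457 to 1.16 CPM for *Csf2* and 0.535 to 1.09 CPM for *Csf3* over the PBS libraries. Without replicate 1 of every group 7 of the genes were called, the calls of *Steap4* (adjusted p = 0.0575), *Csf3* (0.0533) and *Csf2* (0.160) being lost. Of the 12 single libraries, leaving out 8 in turn ended the call of *Csf2* (0.0560 to 0.0831). In *AhRfl/fl* cells, PBS replicate 3 did so for *Steap4* (0.0514), PBS replicates 2 and 3 for *Csf3* (0.0507 for each) and PBS replicate 2 for *Cxcl3* (0.0507). Leaving out a PBS library of *Sftpc-Cre;AhRfl/fl* cells did so for *Csf3* with replicate 2 (0.0514) and for *Cxcl3* with replicate 2 (0.0590) or 3 (0.0530). Between the genotypes 0 of the 15 were called, and 13 were lower in *Sftpc-Cre;AhRfl/fl* cells with a median of -0.46 beside -0.0059 over all genes.

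**Figure D5:**
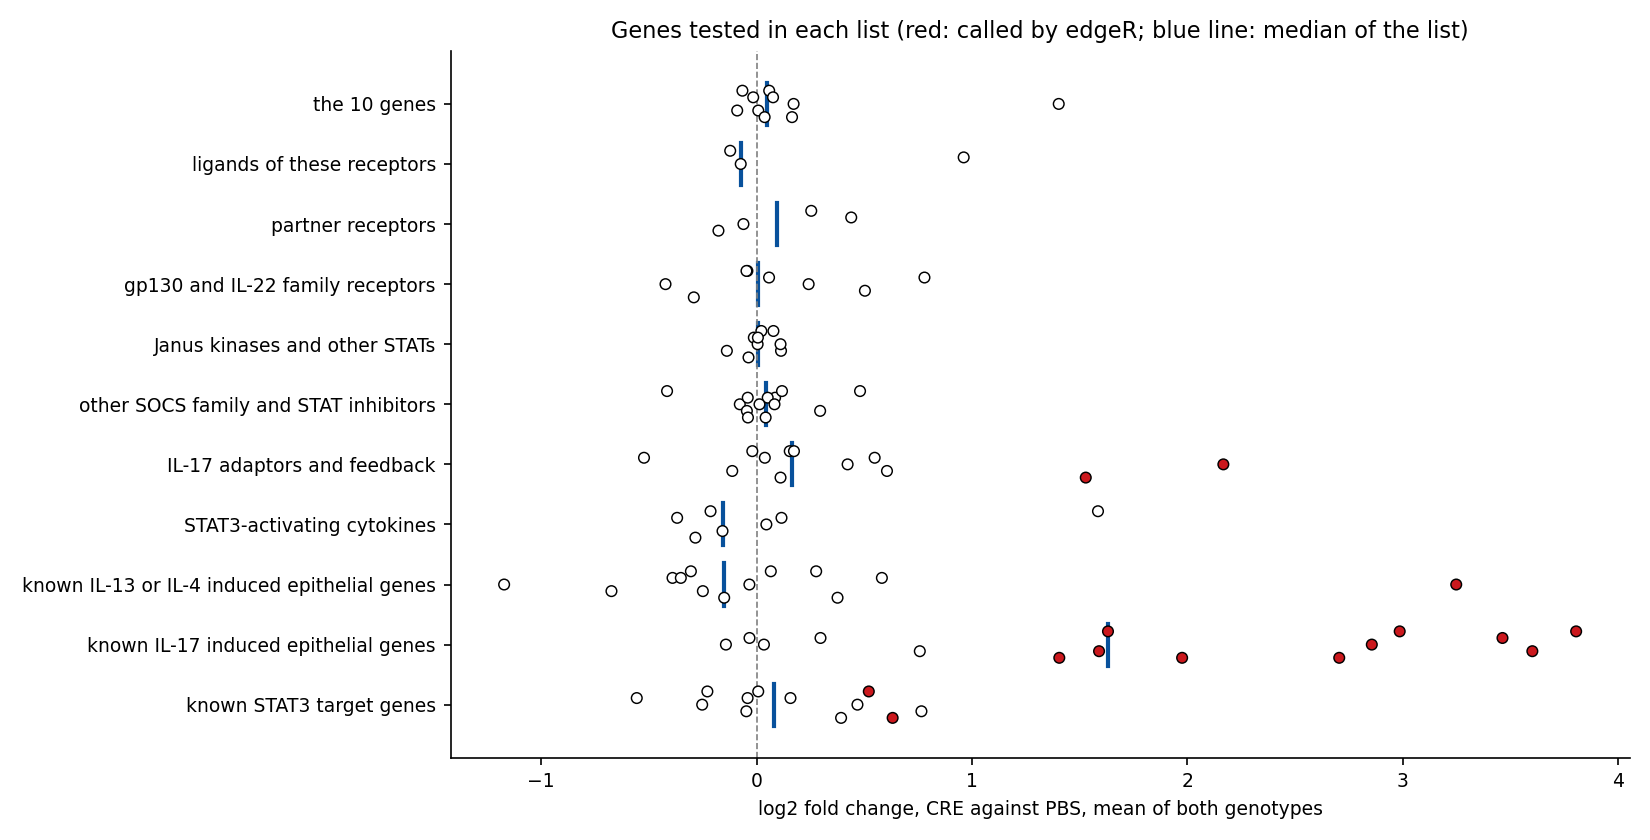
Log2 fold change with CRE averaged over genotypes (horizontal axis) for the tested genes of each list (points, red where edgeR called them) with the list's median (blue line). The 10 receptor, STAT and SOCS genes stay near 0 except *Il13ra2* at 1.40, while 10 of 15 IL-17 induced genes are called higher.

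Genes that IL-4 and IL-13 are known to induce were mostly low. Of 20 listed 13 were tested, 1 was called with CRE, where 1.1% of all genes were, and their median was -0.15. The call was *Slc26a4*, the anion exchanger pendrin, which rose by 3.25 (SE 0.26, adjusted p = 1.9e-04 by edgeR), from 0.894 to 2.31 CPM over the PBS libraries to 4.78 to 29.4 CPM over the CRE libraries. Between the genotypes *Slc26a4* (1.29, adjusted p = 0.0438) and *Serpinb2*, an inhibitor of plasminogen activators (1.60, adjusted p = 0.00365), were higher in *Sftpc-Cre;AhRfl/fl* cells. *Postn*, a matrix protein, was lower (-1.29, adjusted p = 0.0410). The calls of *Serpinb2* (adjusted p = 0.0936) and *Postn* (0.160) were lost without replicate 1 of every group. Those of *Slc26a4* (0.0870 to 0.126) and *Postn* (0.0814 to 0.116) were each lost on leaving out any of 10 of the 12 single libraries. With the libraries paired, *Serpinb2* fell by 0.68 with CRE (adjusted p = 0.00500).

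Of 14 known STAT3 target genes 12 were tested and 2 were called with CRE, where 1.1% of all genes were, with a median of 0.08. *Bcl3*, an IκB family member, rose by 0.52 (SE 0.094, adjusted p = 0.0260 by edgeR) and *Ier3*, an early response gene, rose by 0.63 (SE 0.089, adjusted p = 0.00707). The call of *Bcl3* was lost without replicate 1 of every group (adjusted p = 0.115) and on leaving out any of 7 of the 12 single libraries (0.0505 to 0.0799). *Ier3* was lower in *Sftpc-Cre;AhRfl/fl* cells with both treatments, at 97.9 to 128 and 157 to 190 CPM with PBS and CRE against 149 to 175 and 224 to 276 CPM, an averaged difference of -0.53 (SE 0.089, adjusted p = 0.0276). This call was lost on leaving out any of 9 single libraries (0.0529 to 0.0850). With the libraries paired, *Pim1* (0.47) and *Hp* (0.40) also rose with CRE and *Tnfrsf12a* fell by 0.23 and *Batf* by 0.54.

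Markers of other cells also moved with CRE, in the averaged response in which 1.1% of all genes were called. All 8 AT1 markers were lower with a median of -0.51 and 3 were called, their sum being 2694 to 3465 CPM with PBS and 1898 to 2402 CPM with CRE in *AhRfl/fl* cells and 2898 to 3890 and 2211 to 2813 CPM in *Sftpc-Cre;AhRfl/fl* cells. Of 11 AT2 markers 1 was called lower. The 12 alveolar macrophage markers had a median of -0.46, but 1, *Plet1*, was called higher, and their sum was 182 to 329 CPM with PBS and 445 to 514 CPM with CRE in *AhRfl/fl* cells and 164 to 266 and 363 to 371 CPM in *Sftpc-Cre;AhRfl/fl* cells. The sum thus rose with CRE while the median fell. *Siglecf* is the defining surface marker of these macrophages. In *AhRfl/fl* cells it was at 3.35, 0.282 and 0.271 CPM with PBS and 0, 0 and 0.0537 CPM with CRE. *Sftpc-Cre;AhRfl/fl* cells had 2.66, 0.693 and 1.02 CPM with PBS and 0.190, 0.0547 and 0.354 CPM with CRE. Each CRE library was below the PBS library of its number. The part of other cells in the responses was not tested.

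The pattern of each gene over the 12 libraries was set beside those of the 20612 genes tested by Pearson's correlation of log2 CPM, which is given as a description, since the libraries share groups and replicate numbers. *Il17ra* was most like *Cacna1e* (r = 0.962), *Stk4* (0.957) and *Zc3h12d* (0.955). *Socs1* was most like *Trmt9b* (0.954), *Nuggc* (0.926) and *Gm9752* (0.897). *Il4ra* was most like *Slc25a37* (0.925), *Elf4* (0.924) and *Rnf24* (0.900), and *Il13ra2* was like *Syncrip* (0.922) and *Gm43496* (0.920). *Socs2* was most like *Glod4* (0.942), *Krt84* (0.934) and *Rgs22* (0.931), and *Socs3* was most like *Stk24* (0.878), *Ache* (0.876) and *Ankrd9* (0.874). *Il17rc* was most like *Lypd2* (0.909), *Gm15725* (0.904) and *Mapk13* (0.887). *Stat6* was most like *Sfswap* (0.914), *2700012I20Rik* (0.890) and *A330074K22Rik* (0.875). *Stat3* was most like *AC126029.1* (0.876), *Bche* (0.871) and *Ripor1* (0.867), and *Il13ra1* was most like *Gm5491* (0.875), *1700047I17Rik2* (0.871) and *Gpr176* (0.869). Among the 10 genes themselves the closest pair was *Il4ra* with *Il17ra* (r = 0.683) and the most opposed was *Socs2* with *Socs3* (r = -0.761).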

How the data were processed

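The authors sequenced stranded mRNA libraries, aligned reads with STAR 2.7.2b to GRCm38 and quantified genes with Salmon. The study names RefSeq, but all 55450 deposited gene IDs were found in GENCODE M21, from which positions were taken, and which annotation made the counts is not given in the sources used here. Each deposited count is whole and raw, and the deposited FPKM was made by the authors from the count. Counts were scaled with TMM (factors 0.969 to 1.03) and filtered with filterByExpr (minimum count 10) in edgeR 4.0.16 under R 4.3.3. Its quasi-likelihood test was fitted to 4 group means over 12 libraries, with Benjamini-Hochberg adjustment over 20612 genes and a threshold of 0.05. The fit was tested on simulated data. DESeq2 1.42.0, limma 3.58.1 (also with the study's rule), other scalings, filters and left-out libraries were alternatives. Leaving out replicate 1 of every group was chosen after seeing the data. FPKM served for comparing levels between genes.

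Libraries of CRE and PBS with the same replicate number deviated together (r over 14543 genes of 0.729, 0.418 and 0.651 in AhRfl/fl and 0.589, 0.542 and 0.325 in Sftpc-Cre;AhRfl/fl cells). They were therefore treated as pairs in a further fit, which is given where it changes a call. The members and gene lists were chosen with earlier results of these data known. Named are the 10 genes, listed pathway genes that were called by edgeR, otherwise the 2 with the smallest p in the averaged CRE response, and the 3 genes most like each member, of which 1 is not reported here. Floors and totals cover counting error only.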

Additional observations from a re-analysis of the deposited data

Results flagged for a closer look

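*Il17rc* moved in opposite directions with CRE in the genotypes, lower in 3 of 3 numbered pairs of *AhRfl/fl* cells and higher in 3 of 3 of *Sftpc-Cre;AhRfl/fl* cells. The difference of the responses was 0.32 on the log2 scale (SE 0.17), with an adjusted p of 1.00 in edgeR. Without CRE replicate 1 of the *AhRfl/fl* cells, in which *Il17rc* was lowest at 28.6 CPM, their response was 0.01 in the unpaired fit. That fit kept PBS replicate 1, the lowest PBS library of these cells at 35.4 CPM. The remaining numbered pairs were still lower with CRE, by -0.08 and -0.02 on the log2 scale.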

How the results depend on the processing

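The count of the 10 genes called was 0 in every comparison and alternative except 3. DESeq2 called 1 gene, *Socs2*, in the genotype difference with CRE and 1, again *Socs2*, in the averaged genotype difference, and the study's rule called 1, *Il13ra2*, in the averaged CRE response. The IL-17 induced genes called higher numbered 7 to 11 over the alternatives.

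Small changes turned sign. The averaged CRE response of *Socs1* was -0.0547 with limma-trend and the study's rule, -0.00325 and -0.0380 with the replicate block (the number as a term and within genotype), and -0.202 without replicate 1 of every group. The last setting also turned the averaged genotype differences of *Socs1* (0.177) and *Il17ra* (0.0236). The averaged CRE response of *Il17ra* was -0.0018 with library size alone, and the averaged genotype difference of *Il13ra2* was 0.0139 with limma-trend and the study's rule. Leaving out single libraries gave averaged CRE responses of -0.127 to 0.0147 for *Il17d*, of -0.0576 to 0.091 for *Il17ra*, of -0.00248 to 0.106 for *Il17rc*, of -0.287 to 0.402 for *Socs1* and of -0.0512 to 0.0198 for *Stat6* and averaged genotype differences of -0.561 to 0.25 for *Il13ra2*, of -0.0928 to 0.0388 for *Il17ra*, of -0.103 to 0.00472 for *Il17rc*, of -0.491 to 0.198 for *Socs1* and of -0.0828 to 0.00928 for *Stat3*. In *AhRfl/fl* cells alone it gave CRE responses of -0.205 to 0.0119 for *Il17rc*. In *Sftpc-Cre;AhRfl/fl* cells alone it gave CRE responses of -0.0367 to 0.0934 for *Socs2*. The cause was not tested.

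Between the genotypes the numbers did not pair the libraries (r of 0.420, 0.042 and 0.106 with PBS and 0.413, -0.029 and 0.087 with CRE). The replicate block within treatment lowered the calls over all genes from 130 to 65 in the averaged genotype difference and ended those of *Ptpn1* (adjusted p = 0.150), *Ier3* (0.145) and *Postn* (0.0812). It changed no call of the 10 genes. Over all genes, the averaged CRE response had 226 calls in edgeR, 743 in DESeq2, 828 by the study's rule and 529 and 1358 with the replicate block (the number as a term and within genotype), and the averaged genotype difference had 130 in edgeR, 522 in DESeq2, 847 by the study's rule and 223 with the number as a term. Without replicate 1 of every group they had 166 and 64, and leaving out single libraries gave 125 to 219 and 78 to 110. Library size alone ended the genotype calls of *Ptpn1* (adjusted p = 0.0952) and *Postn* (0.0550), no filter those of *Ptpn1* (0.0574), *Postn* (0.0668) and *Slc26a4* (0.0578), and limma-trend that of *Slc26a4* (0.0555). With only the 6 libraries of *Sftpc-Cre;AhRfl/fl* cells, the CRE calls of *Zc3h12a* (0.0761) and *Nfkbiz* (0.0940) were lost. In order of CPM instead of FPKM, 8 of the 10 genes took another place, *Stat3* being first. *Il13ra2* (8 to 106) and *Socs1* (72 to 604) were the only members with under 1000 counts in a library, and the filter of 1 CPM in 3 libraries left no value for *Il13ra2*.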
